A study of Mus musculus with 8 samples.

Results

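Perigonadal white fat of wild-type C57BL/6 mice is described here from 4 of the 8 RNA-seq libraries of the series, those titled wild type 1 to 4, 1 library from each of 4 mice. The mice were 20 weeks old and had eaten a diet with 45% fat for 12 weeks, from 8 weeks of age. Whole fat tissue was homogenized, so each library mixes RNA of adipocytes, connective tissue cells, vessels, mesothelium, blood and immune cells. The other 4 libraries came from mice with an adipocyte-specific gene knockout, matched for age and weight per the labels, and were not used, so no genotype comparison is made. The labels used here give no body weight for each mouse, and do not state sex or whether the mice were littermates.

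White adipocytes store triglyceride in 1 large droplet, take up fatty acids that lipoprotein lipase releases from circulating lipid, make fatty acids from glucose, and secrete hormones such as leptin and adiponectin. Around them lie fibroblast-like progenitors, a basement membrane, a dense capillary bed and macrophages, which accumulate in fat during obesity. Perigonadal fat lies inside the abdomen and is covered by mesothelium, a thin epithelial sheet. In whole tissue, fewer cells of a type and less RNA per cell cannot be told apart.

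The 4 libraries held 49389893 to 51431956 counts over 23212 gene symbols. Levels of 1 gene in different mice are given as CPM, counts per 1000000 counts of the library, scaled with TMM factors of 0.971 to 1.03, in the order mouse 1 to mouse 4. Levels of different genes are compared only by the per-length level, which is counts per exonic kilobase scaled to 1000000 in each library. Of all symbols, 4963 had no count in any mouse, 15699 had a count in each mouse, and 13750 had at least 0.200 CPM in all 4 and entered the descriptions of spread. Spread is the coefficient of variation (CV, SD over mean) over the 4 mice. With 4 values, counting error aside, the true SD could be from 0.566 to 3.73 times the observed one (95% interval for normal values). Mouse 3 stood apart in genes of epithelium and motile cilia, whose values are given below, and mouse 4 in the ribosomal RNA precursor Rn45s, which held 0.731% of its counts against 0.373% to 0.404% in the others.

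Promoter sequence is shown for 5 genes described below, because each has the letters TATAAA, the TATA box motif, beginning 29 to 32 bases before its annotated start, and because the levels of 4 of them differed between mice while those of Mapre1 were almost equal. The windows are the 60 bases that end just before the start of transcription in the RefSeq promoter table (GRCm38.p6), read on the strand of the gene, and the capitals mark TATAAA. The starts match those of the deposited annotation. S100a8 lies at chr3:90669011-90669070 on the plus strand and encodes a calcium-binding protein of neutrophils. Ccl8 lies at chr11:82115125-82115184 on the plus strand and encodes a chemokine that attracts monocytes. Mcpt4 lies at chr14:56062311-56062370 on the minus strand and encodes a mast cell protease. Irf7 lies at chr7:141266425-141266484 on the minus strand and encodes a transcription factor of the interferon response. Mapre1 lies at chr2:153741227-153741286 on the plus strand and encodes a protein that binds the growing ends of microtubules.
S100a8: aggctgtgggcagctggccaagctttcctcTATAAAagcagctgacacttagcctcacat
Ccl8: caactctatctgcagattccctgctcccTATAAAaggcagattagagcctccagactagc
Mcpt4: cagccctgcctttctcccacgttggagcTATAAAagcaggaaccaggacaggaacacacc
Irf7: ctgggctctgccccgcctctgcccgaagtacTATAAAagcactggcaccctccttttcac
Mapre1: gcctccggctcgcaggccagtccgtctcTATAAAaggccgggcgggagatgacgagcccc

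A few genes of lipid handling held a large share of all counts. Scd1, which encodes stearoyl-CoA desaturase and adds a double bond to saturated fatty acids, was first in every library and alone held 3.88%, 4.06%, 5.48% and 6.21% of counts in mice 1 to 4. The 10 most counted genes of each library together held 15.1% ± 2.10 (SD, n = 4), and the 100 most counted held 32.2% ± 1.91. The share of the top 10 was lowest in mouse 2, at 12.83% (95% Clopper-Pearson interval, counting error only, 12.82% to 12.84%), and highest in mouse 4, at 17.87% (17.86% to 17.88%), so the mice differed far beyond counting error. Between 428 genes in mouse 4 and 537 in mouse 2 were enough to hold 50% of counts. At the other end, 12783 genes reached a mean of 1 CPM, 1781 reached 100 CPM, 100 reached 1000 CPM and 5 reached 10000 CPM.

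**Figure D1:**
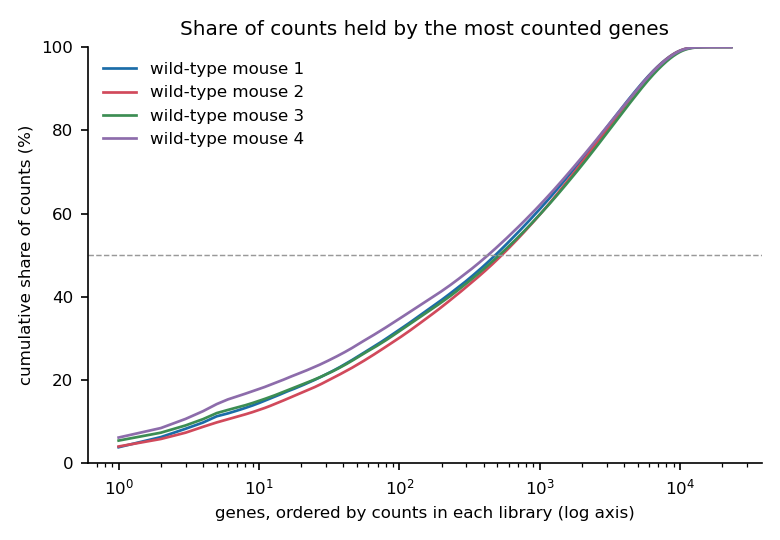
Cumulative share of counts (%) against the number of genes, ordered by their counts in each library (log axis), 1 line for each wild-type mouse; the dashed line marks 50%. The line of mouse 4 lies highest over the first 100 genes, where it reaches 34.7%, and that of mouse 2 lowest, at 30.1%.

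The 5 genes above 10000 CPM were Scd1, Car3, Fabp4, Lpl and Gsn. Scd1 (chr19:44394450-44407709, mm10, as are all gene positions here) was at 39361, 39923, 53342 and 63989 CPM, a mean of 49154 ± 11814 (SD, n = 4). Car3 (chr3:14863538-14872373), a cytosolic carbonic anhydrase abundant in fat, was at 24710, 14922, 18447 and 23463 CPM. Fabp4 (chr3:10204343-10208576), which carries fatty acids inside adipocytes, was at 20290, 13909, 14055 and 19208 CPM. Mouse 4 was the highest for Scd1, whereas mouse 1 was the highest for Car3 and Fabp4, and mouse 2 was the lowest for both of these. Lpl (chr8:68880555-68906932), the lipoprotein lipase that works on the capillary wall, was at 15094, 17768, 16960 and 17445 CPM and had a CV of only 0.0711. Gsn (chr2:35256359-35307902), which encodes gelsolin, an actin-severing protein, was at 15288, 10300, 14833 and 22640 CPM.

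Per length, the order changed. Fabp4 came first at a per-length level of 58041 ± 10146, then Car3 at 29421 ± 5971, Scd1 at 22445 ± 5009, Cfd at 16543 ± 6664 and Gsn at 11807 ± 3449 (SD, n = 4 each). Apoe, Adipoq and Lpl followed at 9625, 9289 and 9199, and these 3 did not differ beyond their SDs of 1190.5, 2139 and 728. Fabp4 has 641 exonic bases and Scd1 has 4837. Of the 100 genes with the highest CPM, 69 were also among the 100 with the highest per-length level.

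Membership of the top was shared between mice. Of the 20 genes with the highest mean, 17 were among the top 20 of each library, and 25 genes reached the top 20 of at least 1. The list of 22 mature adipocyte markers had 11 members among the top 20 and 17 among the top 100. Sparc, a matrix-binding glycoprotein, was at 6006, 5650, 7302 and 6014 CPM, and Cav1, the coat protein of the caveolae that stud the adipocyte membrane, at 4580, 4772, 4604 and 4368 CPM. Trf, which encodes the iron carrier transferrin, was at 4514, 3958, 3334 and 4167 CPM. The median CV of the 20 genes was 0.207, against 0.146 over all 13750 genes, and Fasn was the only one of the 20 at 0.5 or more.

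**Figure D2:**
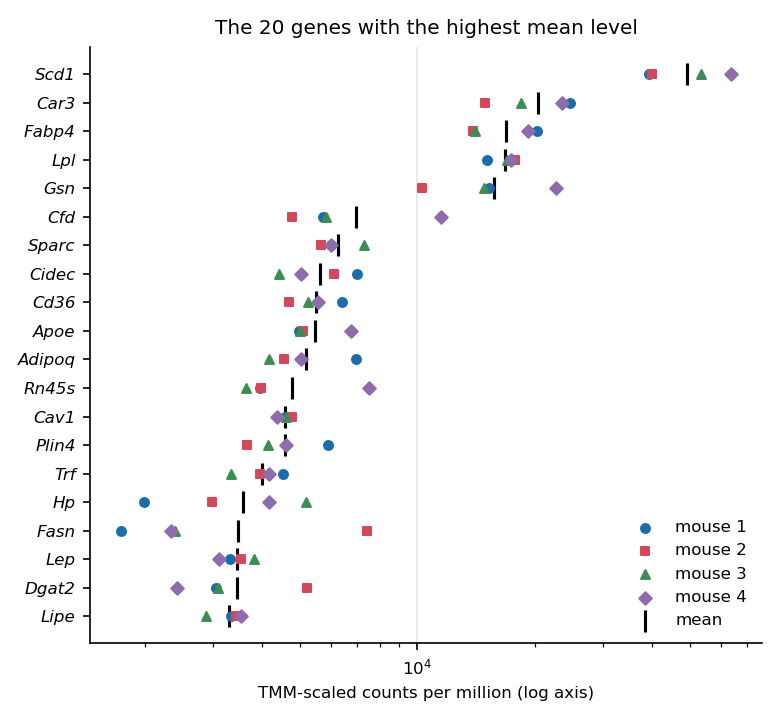
TMM-scaled CPM (log axis) of the 20 genes with the highest mean, 1 marker for each mouse and a bar at the mean. Cav1 and Lpl have their 4 markers close together, and Fasn has mouse 2 at 7422 CPM against 1736 to 2393 in the other mice.

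Markers of the mature adipocyte were high in all 4 mice. The list was chosen with earlier results of these data known, so this describes the tissue and does not check its label. All 22 passed the count filter, and together they held a per-length level of 178799, 137709, 142178 and 172683, or 15.8% of the whole on average. The fat hormones differed in spread. Lep, which encodes leptin, was at 3309, 3527, 3821 and 3107 CPM (CV 0.0888), and Adipoq, which encodes adiponectin, at 6967, 4542, 4174 and 5035 CPM (CV 0.240). The 2 hormones did not share an order, since mouse 3 was the highest for Lep and the lowest for Adipoq. Retn, which encodes resistin, was at 924 CPM in mouse 1 and at 1630 to 1881 CPM in the other 3. Cfd, the complement factor D also called adipsin, was at 11527 CPM in mouse 4 and at 4771 to 5825 CPM in the others.

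Droplet proteins and lipases had a spread near that of all genes. Over the 16 genes of the lipid droplet and lipolysis list the median CV was 0.165, against 0.146 over all 13750 genes. None reached 0.5, which with 7.04% of all genes at that level is near the background. Cidec, which fuses lipid droplets, was at 7016, 6098, 4418 and 5043 CPM. Plin1, which coats the droplet and guards it from lipases, was at 1753, 1547, 1322 and 1690 CPM. Pnpla2, the lipase that removes the first fatty acid from triglyceride, was at 3400, 2461, 2336 and 3689 CPM, and Lipe, the hormone-sensitive lipase that acts on the next step, at 3331, 3434, 2866 and 3531 CPM. Mouse 3 was the lowest for all 4 of these genes. Over the list it was the lowest for 8 of 16, as it was for 22.0% of all genes. Another 5 of the 16 were lowest in mouse 2, as were 31.2% of all genes. With scaling by total counts mouse 3 was the lowest for 6 of the 16 and for 1862 of all 13750 genes. Lipe shares 453 exonic bases with the predicted gene 4732471J01Rik, so its counts are less certain.

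Transcription factors of the adipocyte were lower in level and steady. Pparg, the nuclear receptor that drives fat cell differentiation, was at 231, 198, 185 and 210 CPM (CV 0.0939), and Cebpa, its partner, at 901, 951, 777 and 1047 CPM (CV 0.122). Slc2a4, the insulin-responsive glucose transporter, was at 270, 236, 202 and 253 CPM. The largest CV of the mature adipocyte list, 0.450, was that of Pck1, which makes the glycerol backbone of triglyceride in fat, at 4979, 2607, 1850 and 2639 CPM. Of the 22 markers, 13 were highest in mouse 1 and 12 lowest in mouse 3, where 25.2% of all genes were highest in mouse 1 and 22.0% lowest in mouse 3. The median CV of the list, 0.207, was 0.125 without mouse 1.

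Genes of thermogenic fat were low, and those that define it were near 0. Of the 13 listed, 7 passed the count filter and 6 reached a mean of 1 CPM. Ebf2, a transcription factor of brown adipocytes and their precursors, was the most counted at 15.7, 13.4, 16.7 and 21.6 CPM. Prdm16, a coregulator of the brown fat programme, was at 4.55, 5.72, 6.97 and 4.84 CPM, and Cidea, a droplet protein of brown fat, at 3.82, 2.03, 4.05 and 5.51 CPM. Ucp1, the uncoupling protein that defines brown and beige adipocytes, was at 0.0404, 0.0191 and 0.0783 CPM in mice 1 to 3 and had no count in mouse 4, where 3 counts would be 0.0626 CPM. Zic1, a marker of classical brown fat, had a count in mouse 3 only. The whole list summed to a per-length level of 94.2 ± 4.68, of which Cox8b, a heart-type subunit of cytochrome oxidase, held 51.2%.

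Lipid synthesis split into Scd1 and the rest. Scd1 held 80.3% of the list's summed per-length level. Without it, the sum was 4338, 9202, 4395 and 4047 in mice 1 to 4, so mouse 2 was above the other 3, which were close to each other. Of the 17 genes, 13 were highest in mouse 2, as were 29.2% of all genes, and 7 had a CV of 0.5 or more, against 7.04% of all genes. Fasn, the fatty acid synthase, was at 1736, 7422, 2393 and 2341 CPM. Acly, which makes acetyl-CoA from citrate, was at 244, 1289, 280 and 261 CPM, and Acss2, which makes it from acetate, at 106, 651, 134 and 106 CPM. Mouse 2 was 3.10-fold above the next highest mouse for Fasn, 4.61-fold for Acly and 4.85-fold for Acss2, which shares 113 exonic bases with a predicted gene.

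Mouse 2 was also the highest for further enzymes of the pathway. Acaca, acetyl-CoA carboxylase, was at 121, 292, 105 and 128 CPM. Me1, a malic enzyme that supplies NADPH, was at 418, 1214, 440 and 431 CPM, and Elovl6, which lengthens palmitate, at 31.4, 111, 31.6 and 28.3 CPM. For Elovl6 mouse 2 was 3.50-fold above the next mouse, further than for Fasn. Scd2, a second desaturase gene, was at 291, 1556, 699 and 409 CPM. Srebf1 and Mlxipl encode transcription factors that are known to act on these genes, and their levels differed less between mice than those of these enzymes. Srebf1 was at 422, 411, 351 and 395 CPM (CV 0.0796), and shares 107 exonic bases with Rai1. Mlxipl, which encodes the carbohydrate-sensing factor ChREBP, was at 57.5, 61.0, 47.4 and 45.0 CPM, and so was also highest in mouse 2. The median CV of the list was 0.361 over 4 mice and 0.10 without mouse 2.

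Secreted factors beyond the fat hormones varied in different mice. Hp, which encodes haptoglobin, a binder of free hemoglobin, was at 1987, 2971, 5181 and 4173 CPM. Nnat, the imprinted gene neuronatin, was at 2908, 1104, 1914 and 2656 CPM, while Angptl4, an inhibitor of lipoprotein lipase, was at 1093, 1064, 1054 and 954 CPM (CV 0.0582). Lcn2, which encodes the iron-siderophore binder lipocalin, was at 3.54, 10.4, 45.0 and 6.24 CPM, and Saa3, an acute-phase serum amyloid gene, at 4.23, 67.1, 11.9 and 24.2 CPM. Thus Lcn2 was highest in mouse 3 and Saa3 in mouse 2, and these 2 were the ones of the 19 counted genes with a CV of 0.5 or more, a share near the 7.04% of all genes. Itln1, which encodes omentin, had no count in any mouse.

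**Figure D3:**
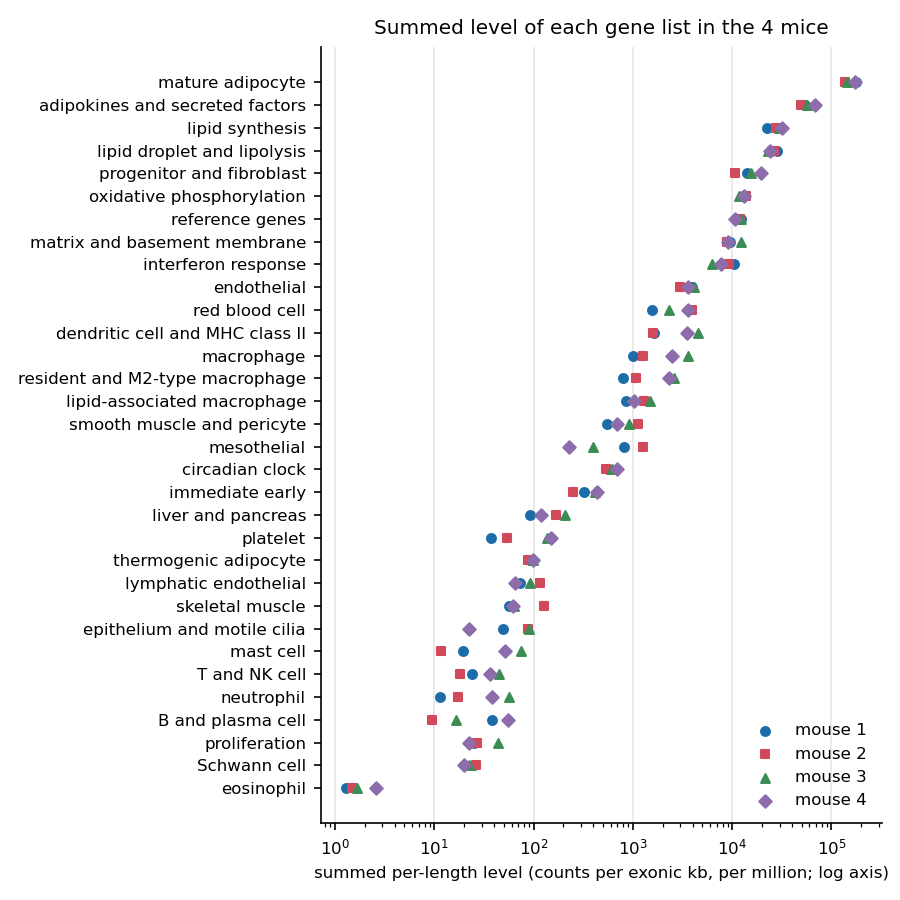
Summed per-length level (log axis) of each of 32 gene lists, 1 marker for each mouse, lists ordered by their mean. The mature adipocyte list lies at 137709 to 178799 and the eosinophil list at 1.29 to 2.56, and the mesothelial and macrophage lists have their markers far apart.

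Fibroblast and progenitor genes came next among the tissue's own cells, mostly through Gsn. The list of 21 summed to 14892 ± 3612 (SD, n = 4), but Gsn held 79.3% of it, and the rest summed to 2548, 2823, 3853 and 3116. Without Gsn the mean was 3085 ± 562. The endothelial list was at 3677 ± 524, or at 2814 ± 550 without its own highest member. The order of these lists thus depended on which members were left out. Dcn, the collagen-binding proteoglycan decorin, was at 825, 886, 1092 and 1175 CPM, and Col3a1, a fibrillar collagen, at 712, 885, 1192 and 896 CPM. The progenitor receptor Pdgfra was at 16.6, 16.6, 41.7 and 41.3 CPM, and Pi16, a marker of fibroblasts in the interstitium, at 27.3, 20.5, 71.9 and 69.3 CPM. For these last 2, mice 3 and 4 lay together above mice 1 and 2, a split of the mice noticed in the data and then counted. It was found in 11 of the 21 genes and in 24.9% of all genes. Dpp4 ran the other way, at 74.5, 111, 38.3 and 25.2 CPM. It is a surface peptidase used as a marker of early progenitors and is also made by mesothelium.

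Matrix genes were highest in mouse 3. Of 20 matrix and basement membrane genes, 16 were highest there, as were 25.2% of all genes. Col4a2, a chain of basement membrane collagen, was at 998, 1129, 1646 and 1256 CPM, and Col4a1, its partner chain, at 1613, 1558, 1984 and 1552 CPM. Fn1, which encodes fibronectin, was at 168, 170, 447 and 423 CPM, and Mmp2, a gelatinase that cuts collagen, at 21.0, 18.2, 67.2 and 55.7 CPM. These last 2 were the members of the list with a CV of 0.5 or more, a share near the 7.04% of all genes, and both had mice 3 and 4 above mice 1 and 2. The list's median CV was 0.190.

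Most endothelial genes were lowest in mouse 2. All 20 passed the filter and 15 were lowest there, as were 31.2% of all genes. The median CV was 0.229, or 0.136 without mouse 2. None had a CV of 0.5 or more, which with 7.04% of all genes at that level is near the background. Cdh5, the cadherin of endothelial junctions, was at 296, 170, 323 and 228 CPM, and Pecam1, an endothelial adhesion molecule, at 244, 169, 268 and 210 CPM. Gpihbp1, which carries lipoprotein lipase across the capillary wall, was at 274, 172, 258 and 250 CPM. Flt1, a receptor for vascular endothelial growth factors, had the list's largest CV, 0.408, at 85.9, 28.4, 68.8 and 54.9 CPM. The highest per-length level of the list, 863 ± 70.4, was that of the gene listed as 1190002H23Rik, an older symbol of Rgcc, which encodes a cell cycle regulator high in endothelium.

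Lymphatic, mural and muscle genes were lower. Prox1, the transcription factor that defines lymphatic endothelium, was at 0.0383 to 0.352 CPM, and the lymphatic list's largest member was Pdpn, which mesothelium also makes, at 43.8, 78.1, 34.9 and 27.3 CPM. Mice 3 and 4 were above mice 1 and 2 in 3 of the 5 counted lymphatic genes, against 24.9% of all genes. These were Lyve1, at 13.5, 15.8, 38.4 and 29.5 CPM, Mmrn1 and Reln, while Pdpn and Flt4 did not have that split. Acta2, smooth muscle actin, was at 179, 591, 229 and 149 CPM, highest in mouse 2. Of the 15 genes of smooth muscle and pericytes 4 were highest in mouse 2, a share near the 29.2% of all genes. These were Acta2, Tpm2, Cspg4 and Des, where Des, the muscle filament protein desmin, was at 22.7, 30.2, 28.3 and 29.8 CPM. Mice 3 and 4 were instead the highest for Myh11, smooth muscle myosin, at 16.2, 22.9, 48.3 and 52.5 CPM and for Cnn1, calponin, at 0.869, 3.56, 5.74 and 6.49 CPM. Over the list, 10 of the 15 genes had mice 3 and 4 above mice 1 and 2, against 24.9% of all genes. In 8 of the 15 mouse 1 was the lowest, as it was for 25.2% of all genes. The pericyte markers Rgs5 and Notch3 were at 38.3, 12.7, 58.6 and 53.1 CPM and at 23.5, 11.3, 51.3 and 35.1 CPM, lowest in mouse 2. Skeletal muscle genes summed to 77.4 ± 33.1 per length, of which Acta1 held 88.7%, while Ckm and Myh4 were at or under 0.101 CPM in every mouse.

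Mesothelium differed most between mice among the tissue's structural lists. Its summed per-length level was 823, 1260, 394 and 225, a 5.60-fold range. All 10 counted members were highest in mouse 2, as were 29.2% of all genes, and lowest in mouse 4, as were 21.6%, and 9 of the 10 had a CV of 0.5 or more, against 7.04% of all genes. Msln, which encodes the surface protein mesothelin, was at 157, 229, 72.3 and 42.8 CPM, and Upk3b, an uroplakin made by mesothelium, at 254, 386, 101 and 76.7 CPM. Krt19, a simple-epithelium keratin, was at 69.7, 112, 35.2 and 15.8 CPM. Wt1, a transcription factor of mesothelium, had the smallest CV, 0.380, at 20.4, 26.8, 13.6 and 11.6 CPM. How much of the abdominal surface each piece of fat held is not given in the labels, and its part in these values was not tested.

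Summed macrophage genes ran in the order mouse 3, 4, 2, 1. The 18 genes summed to a per-length level of 1006, 1272, 3564 and 2474, so mice 3 and 4 did not overlap mice 1 and 2. That split was found in 17 of the 18 genes, against 24.9% of all genes, and not in the chemokine receptor gene Cx3cr1, at 0.849, 1.91, 2.60 and 0.647 CPM. Of the 18, 16 were highest in mouse 3, as were 25.2% of all genes, and 15 had a CV of 0.5 or more, as had 7.04% of all genes. The list's median CV was 0.611. Emr1, an older symbol of Adgre1 that encodes the macrophage marker F4/80, was at 16.7, 22.2, 70.3 and 45.2 CPM. Csf1r, the receptor for the macrophage growth factor, was at 51.9, 57.7, 172 and 146 CPM, and C1qa, a complement subunit made by tissue macrophages, at 52.1, 66.4, 211 and 176 CPM. Lyz2, lysozyme, was the highest of the list per length, at 634 ± 297, and at 178, 203, 465 and 360 CPM. Without mouse 3 the median CV of the list was 0.562.

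Markers of resident macrophages had the same split of mice in 9 of 10 counted genes, and those of lipid-loaded macrophages in 4 of 13, or 2 of 13 with scaling by total counts, where 24.9% of all genes had it. Retnla, a secreted product of alternatively activated macrophages that adipocytes can also make, was at 185, 255, 544 and 532 CPM and held 82.6% of its list. Folr2, a folate receptor of resident macrophages, was at 10.7, 15.04, 62.8 and 48.4 CPM, and Cd163, the receptor for haptoglobin-hemoglobin, at 18.2, 13.4, 60.8 and 69.3 CPM. In both, mice 3 and 4 stood well above mice 1 and 2. The list of lipid-associated macrophages, which gather around dying adipocytes, summed to 861, 1286, 1479 and 1021 per length, with mouse 2 above mouse 4. Of its 13 genes, 10 were highest in mouse 3 and 11 were lowest in mouse 1, against 25.2% of all genes for each. Gpnmb, a glycoprotein of lysosome-rich macrophages, was at 23.7, 65.9, 131 and 30.4 CPM, and Mmp12, macrophage elastase, at 20.4, 53.4, 80.3 and 20.7 CPM. Spp1, which encodes osteopontin, was at 0.586, 2.07, 14.2 and 0.647 CPM. Trem2, the lipid-sensing receptor that defines this state, did not share that order, at 36.1, 54.3, 33.8 and 55.6 CPM.

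Antigen-presenting and other immune genes followed mice 3 and 4 in part. Cd74, the invariant chain of MHC class II, was at 417, 398, 1140 and 954 CPM, and H2-Aa, a class II chain, at 207, 190, 545 and 472 CPM. Of the 11 counted genes of that list 9 were highest in mouse 3, against 25.2% of all genes. In 8 of the 11 mice 3 and 4 were above mice 1 and 2, against 24.9% of all genes. Its median CV of 0.510 was 0.337 without mouse 3. The mast cell proteases Mcpt4 and Tpsb2 were at 0.890, 0.612, 7.54 and 5.57 CPM and at 1.21, 0.632, 9.67 and 9.18 CPM. Kit, the stem cell factor receptor and the most counted gene of the mast cell list, was instead at 23.1, 10.4, 25.6 and 16.1 CPM, with mouse 1 above mouse 4. S100a8 was at 1.66, 2.28, 8.83 and 6.20 CPM, but its partner gene S100a9 was at 0.0809, 0.574, 0.0783 and 0.188 CPM, highest in mouse 2. The neutrophil genes Cxcr2, Retnlg, Camp and Ngp were at or under 0.125 CPM. The chemokine Ccl8 was at 1.35, 3.90, 30.9 and 12.2 CPM. Cd74, H2-Aa, Mcpt4, Tpsb2, S100a8 and Ccl8 all had mice 3 and 4 above mice 1 and 2.

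Lymphocyte genes were low. Cd3e, a T cell receptor subunit, was at 0.667, 0.306, 0.783 and 1.17 CPM, and the whole T and NK list summed to 30.9 ± 12.3 per length. Mice 3 and 4 were above mice 1 and 2 in 14 of its 15 counted genes, against 24.9% of all genes. Of the 9 counted B and plasma cell genes, 5 were highest in mouse 1 and 4 in mouse 4, against 25.2% and 20.4% of all genes. Mouse 2 was the lowest for 5 and mouse 3 for 4, against 31.2% and 22.0% of all genes. Tnfrsf17, a further gene of that list, had another order, at 0.182, 0.191, 0.920 and 1.38 CPM. Igj, an older symbol of Jchain, which joins the units of secreted IgA and IgM, was at 12.5, 1.53, 2.60 and 31.2 CPM, and the B cell receptor gene Cd79b at 3.84, 1.19, 2.41 and 4.42 CPM. Eosinophil genes summed to 1.75 ± 0.565 per length, and only Prg2, eosinophil major basic protein, passed the filter. It was at 0.364, 0.421, 0.392 and 0.814 CPM.

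**Figure D4:**
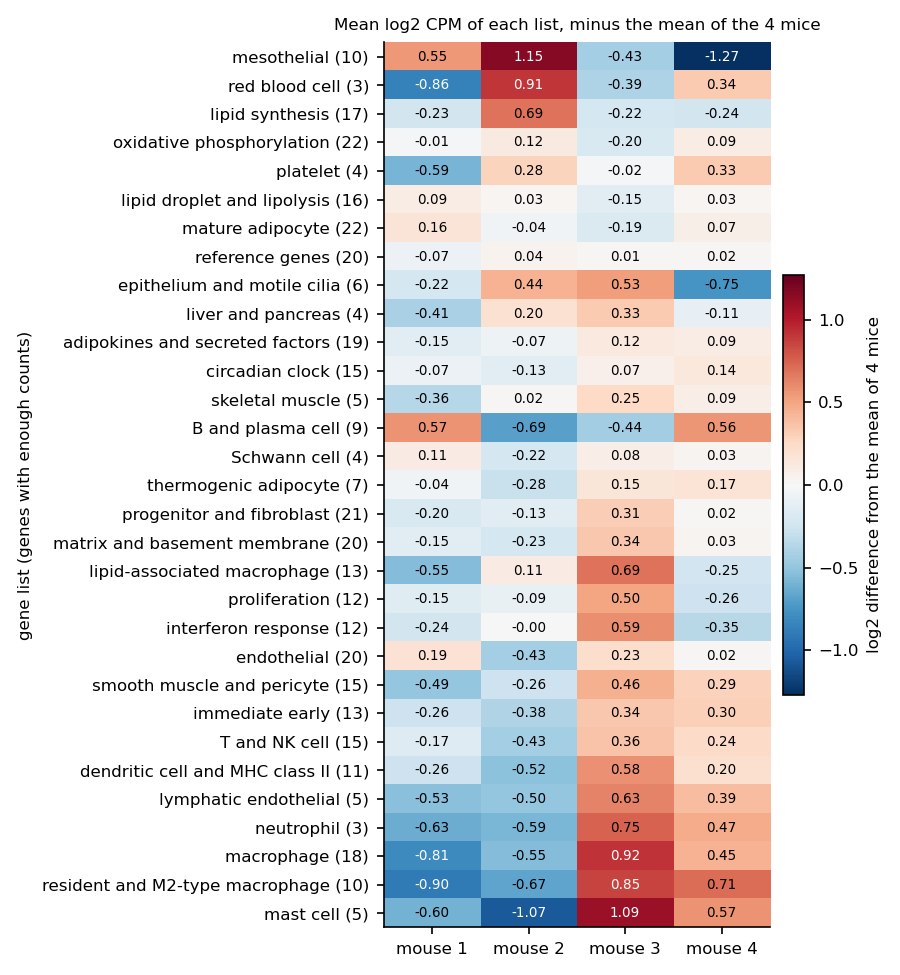
Mean log2 CPM of the counted members of each list in each mouse, minus the mean over the 4 mice (colour and number, log2 units), for lists with at least 3 members that passed the filter (number in brackets). Macrophage genes lie at -0.81, -0.55, 0.92 and 0.45 and mesothelial genes at 0.55, 1.15, -0.43 and -1.27 in mice 1 to 4, while reference genes stay between -0.07 and 0.04.

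Globin RNA was plentiful, whereas markers of nerve and pancreas were near 0. The red blood cell list summed to 1556, 3903, 2306 and 3630 per length, on average 2849 or 0.285% of the whole, which was above the 2079 of the macrophage list. The beta-globin gene listed as Beta-s was at 443, 1089, 626 and 1080 CPM and held 98.0% of the list. The alpha-globin genes Hba-a1 and Hba-a2, which encode the partner chain, had no count in any mouse. In Hba-a2, 86.9% of all stretches of 50 bases also occur in the transcript of another gene, and in Beta-s, which was counted, 65.8% do. Hba-a1 shares 1112 of its 1118 exonic bases with Hba-a2 in the deposited annotation. The part of either in the absent counts was not tested. Pf4, a chemokine of platelets that macrophages can also make, was at 8.57, 10.5, 33.0 and 39.7 CPM. Sox10, which defines Schwann cells, was at or under 0.167 CPM. The pancreas genes Prss1 and Ins2 had no count, although Cela1, an elastase gene first named for pancreas, was at 32.3, 68.6, 82.8 and 45.9 CPM.

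The epithelial and cilia list summed to 49.3, 88.5, 89.9 and 22.6 per length, so mice 2 and 3 were alike in the sum, but its members differed. Krt7, a keratin that held 58.2% of the sum, was at 29.8, 52.2, 13.4 and 8.26 CPM, highest in mouse 2. Foxj1, which switches on genes of motile cilia, stood at 0.182, 0.0574, 8.01 and 0.0626 CPM, and Epcam, an epithelial adhesion molecule, at 0.263, 0.172, 5.81 and 0.188 CPM. Cuzd1 was at 0.0809, 0.191, 13.2 and 1.44 CPM. Crisp1, a secreted protein of the epididymis, was instead at 3.44 CPM in mouse 4 and at most 0.235 CPM elsewhere. Without Krt7 the list was at a per-length level of 7.90, 14.8, 70.3 and 11.6. Only 6 of its 20 genes reached the filter, which needs counts in all 4 mice. The part of these genes in other values of mouse 3 was not tested.

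In several gene programmes most members were highest in the same mouse. All 12 proliferation genes were highest in mouse 3, against 25.2% of all genes and 51.7% of those with a CV of 0.5 or more. Among them was Mki67, the antigen of dividing cells, at 7.90, 5.34, 12.9 and 5.40 CPM. Interferon-response genes were highest in mouse 3 for 10 of 12, with Irf7 at 25.8, 25.5, 45.5 and 27.6 CPM. The exception with the highest level was Ifi27l2a, at 2124, 1858, 1169 and 1648 CPM, which was lowest in mouse 3 and held 96.1% of the list's per-length sum. The median CV of the proliferation list was 0.361 with and 0.179 without mouse 3, and that of the interferon list 0.356 with and 0.183 without it. Of 13 immediate early genes, 8 were highest in mouse 4, against 20.4% of all genes, with Zfp36, which destabilizes inflammatory messenger RNA, at 66.9, 42.1, 75.2 and 100 CPM. Clock genes were highest in mouse 4 for 10 of 15, against 20.4% of all genes, and lowest there for 3, against 21.6%. When libraries were scaled by total counts, 7 of the 15 and 1886 of all 13750 genes were highest in mouse 4. The clock repressor Nr1d1 was at 217, 160, 208 and 270 CPM, and the time of collection of each mouse was not used here.

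Oxidative phosphorylation was among the tightest groups. The median CV of its 22 genes was 0.113, below the 0.146 of all genes, and 0.0649 without mouse 3. In that mouse 19 of the 22 were lowest, against 22.0% of all genes. Atp5b, a subunit of ATP synthase, was at 1894, 1827, 1515 and 1919 CPM, and Cox4i1, a subunit of cytochrome oxidase, at 664, 709, 600 and 730 CPM. The gene with the largest CV, 0.267, was Atp5g1, at only 0.748, 1.44, 1.06 and 1.31 CPM. In Atp5g1, 10.6% of 50-base stretches also occur in transcripts of other genes.

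Genes often used as references did not all serve as such here. Eef2, a translation elongation factor, was at 1594, 1502, 1443 and 1517 CPM (CV 0.0409), and Tbp, the TATA-binding protein, at 13.4, 12.5, 12.96 and 13.1 CPM (CV 0.0299). Actb, cytoplasmic actin, was at 1402, 2103, 1643 and 1378 CPM (CV 0.206), and Polr2a, the large subunit of RNA polymerase II, at 117, 72.2, 101 and 91.9 CPM. Gapdh, a glycolytic enzyme that is abundant in most tissues, was at only 0.323, 0.478, 0.411 and 0.334 CPM, and Ppia, cyclophilin A, at 0.364, 0.383, 0.529 and 0.584 CPM. In Gapdh, 82.5% of all 50-base stretches also occur in transcripts of 218 other genes of the GENCODE M21 annotation, and in Ppia 27.4% also occur in those of 75. In Tbp the share was 0.126%, and in B2m, at 2029 ± 272 CPM, it was 0. Eef1a1, at 56.5%, was still at 1256 CPM. How the counting treated reads with several matches is not given in the sources used here, and its part in the low values was not tested.

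Across the transcriptome, differences between mice were larger than counting error for nearly all genes. The median CV of 13750 genes was 0.146, where counting alone gives a median of 0.0308, and 477 genes (3.47%) had a CV at or below their counting CV. A CV of 0.5 or more was reached by 968 genes (7.04%), and a CV of 0.1 or less by 4091 (29.8%). Just below and above the upper limit stood Hspb2 at 0.4999 and Ncapg at 0.5002. Of the 968 genes, 500 (51.7%) were highest in mouse 3, 240 (24.8%) in mouse 2, 172 (17.8%) in mouse 4 and 56 (5.79%) in mouse 1. Over all genes the shares were 25.2%, 29.2%, 20.4% and 25.2%, in the same order of mice. In 726 genes (5.28%) 1 mouse lay beyond Dixon's 95% limit from the other 3, which chance alone gives in about 1 of 20. In pairs of mice, 3 and 4 were closest, with a median absolute log2 ratio of 0.15 and 250 genes more than 2-fold apart. Mice 2 and 3 were farthest apart, at 0.26 and 1129 genes.

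**Figure D5:**
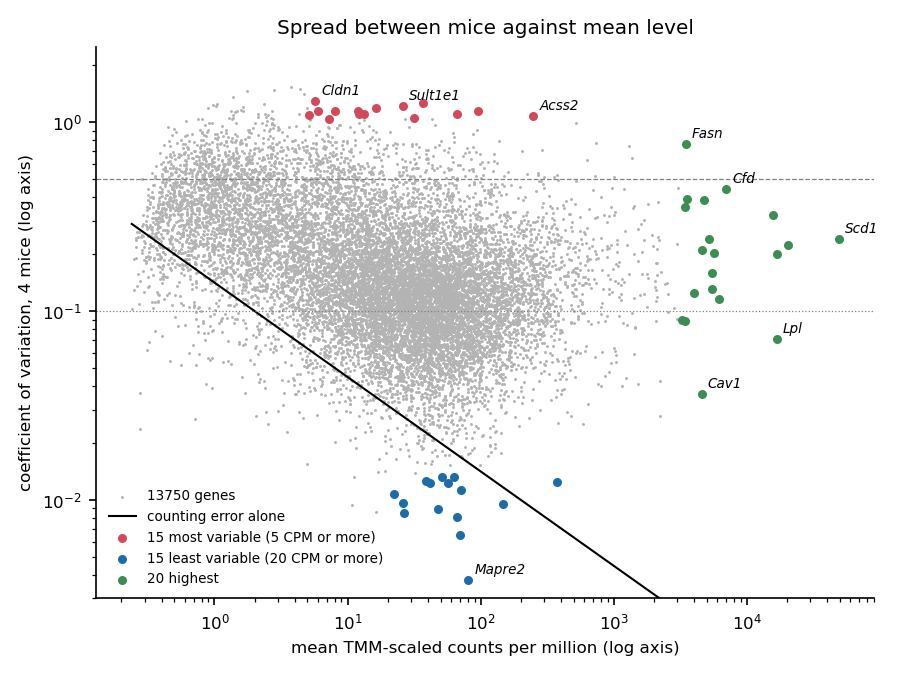
CV over 4 mice (log axis) against mean CPM (log axis) for 13750 genes; the line is the CV that counting error alone gives, and the dashed and dotted lines mark CVs of 0.5 and 0.1. The 15 most variable named genes at 5 CPM or more (red) have CVs of 1.05 to 1.29. The 15 least variable at 20 CPM or more (blue) lie at or below 0.0131, and Fasn stands out among the 20 highest (green).

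The 15 most variable named genes with a mean not below 5 CPM fell into a few patterns. Mice 3 and 4 were above mice 1 and 2 for Sult1e1, an estrogen sulfotransferase, at 3.32, 4.00, 25.8 and 70.5 CPM. The same held for Col6a5, a collagen chain, at 4.47, 9.84, 94.1 and 156 CPM, and for Pi15, a secreted protease inhibitor, at 0.768, 0.708, 6.75 and 12.5 CPM. Inmt, a methyltransferase that acts on indoles, was at 42.3, 5.89, 81.2 and 253 CPM. Mouse 2 was the highest for Acss2, for Ccl2, a chemokine for monocytes, at 6.23, 35.2, 7.95 and 3.78 CPM, and for Mogat2, an enzyme of triglyceride synthesis, at 10.9, 81.5, 20.9 and 13.4 CPM. Ccl2 and the macrophage genes thus had their highest values in different mice. Cldn1, a tight junction protein, had the largest CV, 1.29, at 4.71, 16.4, 1.17 and 0.584 CPM, which is the order of the mesothelial list for mice 2, 1, 3 and 4. Unc5a, at 41.7, 102, 3.13 and 1.61 CPM, had that order too and overlaps Hk3. Mouse 3 alone was high for Lcn2 and for Tfr2, a transferrin receptor, at 2.49, 1.74, 16.2 and 3.42 CPM.

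Each mouse had genes that set it apart from the other 3. In mouse 1 these were Cish, a suppressor of cytokine signalling, at 12.4 CPM against 5.30 or less, Rbp7, a retinol carrier, at 161 CPM against 72.9 or less, and Thbs1, the matrix protein thrombospondin, at 668 CPM against 320 or less. In mouse 3 they included Atp6v0d2, a subunit of the proton pump of macrophage lysosomes, at 25.2 CPM against 7.58 or less, and Adam8, a membrane protease of leukocytes, at 32.7 CPM against 10.7 or less. Mouse 4 had Angpt1, a ligand that steadies vessels, at 19.5 CPM against 7.67 or less, and Lars2, a mitochondrial leucyl-tRNA synthetase, at 403 CPM against 180 or less. Lars2 and Rn45s, at 7529 CPM against 3975 or less, were both highest in mouse 4.

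The 15 genes with the lowest CVs were nearly equal in all 4 mice. Mapre2, a binder of microtubule ends, was at 80.4, 79.9, 80.3 and 80.6 CPM (CV 0.00376), and its paralog Mapre1 was at 145, 147, 149 and 148 CPM (CV 0.00950). Icmt, which methylates prenylated proteins, was at 70.3, 69.8, 69.5 and 70.4 CPM, and Otud5, a deubiquitinase, at 48.5, 48.3, 47.6 and 48.4 CPM. Aifm2, at 378, 370, 373 and 367 CPM, had the highest mean of the 15 and encodes an oxidoreductase that guards lipids from peroxidation. In 14 of the 15 genes the CV was below the counting CV, and all were picked as the lowest of 7057 genes at 20 CPM or more. Their CVs, 0.00376 to 0.0131 with TMM scaling, were 0.0199 to 0.0358 when libraries were scaled by total counts. Among genes at 1000 CPM or more, which were looked up after their values were seen, Npr3, the clearance receptor for natriuretic peptides, was the steadiest at 2233, 2226, 2137 and 2286 CPM (CV 0.0278), followed by Cav1.

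The TATA box sequences printed above were looked at across the same groups. The letters TATAAA on the gene's own strand, beginning 20 to 40 bases before the start, were present in 1.29% of the 10854 counted genes that have a RefSeq promoter entry and in 1.99% of all 32851 entries. Among the 100 genes with the highest mean, 72 had an entry and 4 held the motif (5.56%). Among genes at 5 CPM or more, it was held by 11 of 263 with a CV of 0.5 or more (4.18%) and by 23 of 3172 with a CV of 0.1 or less (0.725%), against 1.14% of all 8414. Searched on both strands over the whole 300 bases, from 250 before to 50 after the start, it was present in 14.1% of the variable genes. The share was 5.90% of the steady ones, 6.74% of all 8414 at 5 CPM or more and 7.32% of all 10854. Ccl8 belongs to the variable group, and Mapre1 to the steady group. S100a8 and Mcpt4 had CVs of 0.714 and 0.944 but means below 5 CPM, and Irf7 had a CV of 0.310. A match of letters is a description and does not show that the motif is used.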

How the data were processed

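Read counts for each gene were taken from the 4 wild-type tables; the authors deposited whole-number counts per gene symbol, 1 table for each mouse. Tools named in the submitters' processing notes are STAR 2.4.0g1, FastQC 0.11.2, Cufflinks, featureCounts and edgeR, with the mm10 build; what each did, the strand setting and the treatment of reads with several matches are not given in these sources. Exonic lengths were computed from the annotation that the authors deposited, where 2457 symbols share exonic bases with another.

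The filter was filterByExpr of edgeR 4.0.16 under R 4.3.3, which here needs 0.200 CPM in all 4 libraries, so a gene absent from 1 mouse is left out of the counts of spread. Libraries were scaled by TMM. No group was compared and no p-value is given. The chi-square ratio and Dixon's limit are used as descriptions. Every pair of libraries differed beyond sampling noise (chi-square per degree of freedom of 69.3 or more). Totals of 49389893 counts or more a library give small counting error above a few CPM. The calculation of spread was tested on simulated counts.

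The 32 gene lists (433 symbols, 5 not found, 11 matched through older symbols) and the rule for named genes were chosen with earlier results of these data known. The rule took the 20 highest genes by CPM and 10 per length, the 4 highest members of each list and those with its extreme CVs, the 15 most and 15 least variable genes above 5 and 20 CPM, the 5 genes most above the other mice in each mouse, and defining markers near 0; other named genes are list members given for their role or were looked up after their values were seen. Alternatives were total counts, median-ratio size factors (DESeq2 1.42.0), other count filters, transcript length, counting variance subtracted, edgeR's tagwise dispersion, shared list members left out and each library left out. Which mouse was highest for each list under each scaling, how many genes of a list had mice 3 and 4 above mice 1 and 2, and the CVs of the steadiest genes, were added after seeing the data. Shared 50-base stretches were counted in GENCODE M21 transcripts.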

Additional observations from a re-analysis of the deposited data

Results flagged for a closer look

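In 13 of 237 sets of 4 values, 1 mouse lay so far from the other 3 that the gap, as a share of the whole range, was above Dixon's 95% critical value. At 1 in 20 the number would be 11.85. Many of the sets were picked by their spread and some share genes, so 1 in 20 is no expectation for them and nothing is concluded from the number. In mouse 2, far above the others, were Acss2 at 651 CPM, Acly at 1289 CPM and the summed per-length level of the skeletal muscle list at 126.9, and far below was S100b, a calcium-binding protein of glia and adipocytes, at 2.05 CPM. In mouse 3, far above, were Col4a1 at 1984 CPM, Irf7 at 45.5 CPM and Pvalb, parvalbumin, at 2.68 CPM. In mouse 4, far above, were Apoe at 6749 CPM, Lamb1, a laminin chain, at 220.0 CPM, Lars2 at 403 CPM and Rn45s at 7529 CPM, which is 0.731% of that library's counts. The summed per-length level of the reference genes was far below the others in mouse 4, at 10670.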

How the results depend on the processing

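No paired analysis was possible because only wild-type libraries entered and no groups were compared. Of 552 recomputed values for the 69 shares, sums, counts and medians, 528 stayed within 1 SD or 1.5 times of the reported value and 24 did not. The number of genes with a CV of 0.5 or more, 968, was 4795 with no count filter, 366 among genes averaging 5 CPM and above, and 473 with edgeR's tagwise biological coefficient of variation, which shrinks genes toward a common value. With that measure no gene was at 0.1 or less, a count of 0 against 4091. With members shared between lists left out, the summed level was 111498 for mature adipocyte genes, 9755 for the lipid droplet list, 26384 for adipokines and 86.9 for thermogenic genes, since members were removed. With the longest transcript as length, the Schwann cell list was at 29.1. The median CV was 0.380 for thermogenic and 1.44 for epithelial genes with no filter, and 0.237 for T and NK and 1.15 for B and plasma cell genes at 5 CPM or more, where few members are left. Leaving out 1 library gave median CVs of 0.125 to 0.225 for mature adipocyte (lowest without mouse 1), 0.10 to 0.385 for lipid synthesis (2), 0.136 to 0.266 for endothelial (2), 0.337 to 0.590 for MHC class II (3), 0.0768 to 0.482 for eosinophil (4), 0.113 to 0.352 for Schwann cell (2), 0.246 to 0.470 for liver and pancreas (1), 0.179 to 0.402 for proliferation (3), 0.183 to 0.440 for interferon response (3) and 0.0649 to 0.138 for oxidative phosphorylation genes (3). The mean CPM of 10 named genes, all among the 15 least variable, moved by more than their very small SD. Mice 3 and 4 were above mice 1 and 2 in 17 of 18 macrophage and 14 of 15 T and NK genes under each of 3 scalings, a count added after seeing the data. Of all 13750 genes, 3084 to 3430 had that split, depending on the scaling. The rank of genes by level moved with length. With 4 mice, precision is set mainly by the number of animals, and depth limits most the genes below about 1 CPM. Depth also limits the steadiest genes, since 58 genes at 20 CPM or more had a CV at or below their counting CV.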

Other observations

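Further genes that belong to none of the gene lists differed widely between mice. Abcg1, which exports cholesterol from cells, was at 135 CPM in mouse 1 and at 49.2 to 64.2 CPM in the others, and Cdsn, known for the adhesion of skin cells, at 264 CPM in mouse 1 and at 86.1 to 125 CPM elsewhere. Sez6l, a membrane protein best known in neurons, was at 18.9 and 12.5 CPM in mice 3 and 4 and at 0.465 and 0.249 CPM in mice 1 and 2. Slc37a2, a sugar-phosphate carrier abundant in macrophages, was at 20.1 CPM in mouse 3 and at 3.78 to 7.28 CPM in the rest. Atp6v0a4, a proton pump subunit, was at 7.52, 17.9, 3.09 and 0.668 CPM and had the order of the mesothelial list, although it shares exonic bases with D630045J12Rik.

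Among the most abundant genes, 3 that handle lipid or sterol were nearly alike in all 4 mice. Npc2, which moves cholesterol out of lysosomes, was at 1163, 1199, 1162 and 1089 CPM. Dbi, which binds acyl-CoA, was at 2207, 2272, 2105 and 2325 CPM, and Fads3, of the fatty acid desaturase family, at 1115, 1061, 991 and 1007 CPM. They were looked up after their values were seen.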
